A study of Mus musculus with 13 samples.

Results

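Olig2, Olig1, Sox10, Sox8, Nkx2-2 and Myrf are transcription factors of the oligodendrocyte lineage, and their reads were followed across 2 kinds of mouse glioblastoma and normal brain. They are 6 of the 55416 genes in the count table, chosen by name and found by matching their symbols to Ensembl identifiers in GENCODE M21, together with any gene that overlaps one of them on the opposite strand. Olig1 and Olig2 are basic helix-loop-helix proteins, and Olig2 is needed to specify oligodendrocyte precursors. Sox10 and Sox8 are closely related SOX proteins, of which Sox10 is needed for the step to the myelinating cell. Nkx2-2 is a homeodomain protein of precursors that begin to differentiate, and Myrf is the regulator that switches on myelin genes in the differentiated cell. Olig2 and Sox10 are well known as markers of gliomas with precursor features.

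The study sequenced polyadenylated RNA of 13 tissue samples: 5 glioblastomas induced with PDGFB, 5 induced with RAS, and 3 of normal brain. Both kinds of tumor were induced by a lentivirus in the motor cortex of mice that carry Cre at the Cnp locus (CNP-Cre, allele Cnptm1(cre)Kan), and both viruses carried a short hairpin RNA against p53. The PDGFB tumors (genotype label PDGFB-shP53) received PDGFB, a growth factor that drives division of precursors, and the RAS tumors (genotype label HrasV12-shp53) received the oncogenic HRasV12. GFP+ tissue was dissected from 5 mice per tumor group at the end point, so it is bulk tissue that can hold other brain cells. Cnp is a gene of the oligodendrocyte lineage, and the submitters call the tumors oligodendrocyte-derived. Normal brain is labelled WT, but the protocol says that it was cut away from GFP+ tumor tissue. The title of normal brain 3 reads MBT-F2 where those of the other normal samples begin with NBT, and its tissue label is the same as theirs. Whether it came from tumor-bearing mice of the same groups, from how many animals and from which region is not given, nor is the age of any mouse. P-values therefore measure the spread between these libraries, which for normal brain may be partly technical.

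The libraries held 13952738 to 15607754 reads in all, and 95.2% to 95.7% of the uniquely mapped reads fell in no gene. Reads counted for genes numbered 529162 to 643055, 4.24% to 4.75% of the uniquely mapped reads. A count of 3 reads corresponds to 4.67 to 5.67 CPM (reads of a gene for each 1e6 reads counted for genes). Genes whose exons overlap an exon on the opposite strand made up 17.1% of the annotated genes and held 84.0% of the reads. The labels do not say whether the kit marked strand, and the strand setting of the count is not given in the sources used here. A gene name therefore stands for the reads deposited under it, and reads of a gene and of its partner on the other strand cannot be told apart. Trp53, the target of the hairpin, had 0 to 5 reads per library, too few to judge a knockdown. Reads of Cnp ranged from 309 to 453 over all libraries. Cnp is not among the genes that lack an opposite-strand partner, so these reads may not all be its own.

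Olig1, Sox8 and Nkx2-2 have a partner on the opposite strand, and Olig2, Sox10 and Myrf have none. On GRCm38, Olig2 (ENSMUSG00000039830) lies on the plus strand of chromosome 16 from 91225457 to 91228677, and Olig1 (ENSMUSG00000046160) on the same strand from 91269772 to 91271933. The last 157 bases of Olig1, all in its 3′ untranslated region, overlap an exon of the long non-coding entry Gm15966 (minus strand, 91271777 to 91329043). Sox10 (ENSMUSG00000033006) lies on the minus strand of chromosome 15 from 79154908 to 79165240. Sox8 (ENSMUSG00000024176, chromosome 17, minus strand, 25565892 to 25570686) shares its first 329 exon bases with the antisense entry 2810468N07Rik (25570358 to 25575043), of which 165 are coding. Nkx2-2 (ENSMUSG00000027434, chromosome 2, minus strand, 147177546 to 147194243) shares 278 coding bases with Nkx2-2os (147184083 to 147331681), and a second antisense entry, 6430503K07Rik, lies within its intron. Myrf (ENSMUSG00000036098) lies on the minus strand of chromosome 19 from 10208272 to 10240748.

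RefSeq promoter windows on GRCm38.p6, running from 250 bases before to 50 bases after the start, were matched for Olig2, Sox8 and Nkx2-2, and are shown because the windows of Sox8 and Nkx2-2 also lie within the span of their antisense partners. Capitals mark the E-box CANNTG, the site type of basic helix-loop-helix proteins, and the SOX core ACAAT, both searched on both strands. The windows are chr16:91225300-91225599 (plus strand), chr17:25570637-25570936 (minus strand) and chr2:147186353-147186652 (minus strand).
Olig2: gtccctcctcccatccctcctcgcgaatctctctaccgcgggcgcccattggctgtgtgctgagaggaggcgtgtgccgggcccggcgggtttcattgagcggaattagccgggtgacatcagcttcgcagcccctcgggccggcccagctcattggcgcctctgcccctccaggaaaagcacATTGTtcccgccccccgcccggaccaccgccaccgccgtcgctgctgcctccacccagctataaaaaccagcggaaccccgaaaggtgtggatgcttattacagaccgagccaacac
Sox8: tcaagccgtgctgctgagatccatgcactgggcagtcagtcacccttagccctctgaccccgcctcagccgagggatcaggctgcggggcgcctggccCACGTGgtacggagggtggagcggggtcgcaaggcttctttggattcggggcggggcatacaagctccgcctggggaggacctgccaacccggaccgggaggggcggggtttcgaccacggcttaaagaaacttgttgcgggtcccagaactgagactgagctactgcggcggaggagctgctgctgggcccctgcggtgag
Nkx2-2: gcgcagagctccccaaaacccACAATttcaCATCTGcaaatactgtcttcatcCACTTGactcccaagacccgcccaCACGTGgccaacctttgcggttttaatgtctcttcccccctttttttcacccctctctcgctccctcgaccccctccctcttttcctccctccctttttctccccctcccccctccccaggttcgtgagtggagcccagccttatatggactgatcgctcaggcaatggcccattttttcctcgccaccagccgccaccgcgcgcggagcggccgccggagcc
The Olig2 window held 0 E-boxes and 1 SOX core, the Sox8 window 1 E-box and 0 SOX cores, and the Nkx2-2 window 3 E-boxes and 1 SOX core. None of these motifs overlapped another. Over all 32851 windows, 72.3% held an E-box and 31.0% a SOX core, so the matches describe the letters and show no binding. G and C made up 65.0%, 66.3% and 59.7% of the windows of Olig2, Sox8 and Nkx2-2, against a median of 52.7% over all windows. The RefSeq start of Nkx2-2 stands 7841 bases inside the GENCODE gene, and the starts of Sox8 coincide.

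The first question was how the factors of the precursor stood in each tumor kind. CPM of Olig2, Olig1, Sox10 and Nkx2-2 was higher in every PDGFB tumor than in every normal brain (4 members, where 28.2% of all genes tested stood so). In RAS tumors Sox10 alone of the members stood above every normal brain (1 member, against 25.8% of all genes) and passed the test. Olig2, Olig1 and Nkx2-2 were higher in every PDGFB than in every RAS tumor (3 members, against 11.4%). Tests are edgeR's quasi-likelihood test with Benjamini-Hochberg adjustment over the 7722 genes that passed a low-count filter, and a gene passed at an adjusted p under 0.05. Of the 6 members, 5 were tested and Myrf was too low. In PDGFB tumors against normal brain 4 members were higher and 0 lower, where 20.2% of all genes tested were higher and 25.1% lower. For RAS tumors 1 member was higher than in normal brain and 0 lower, where 26.9% of all genes were higher and 29.3% lower. Between tumors 4 members were higher in PDGFB tumors and 0 lower, where 14.6% of all genes were higher and 17.4% lower. The plot of CPM by group shows each library. Tissue was bulk, so fewer cells of the lineage and less RNA per cell cannot be told apart.

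**Figure D1:**
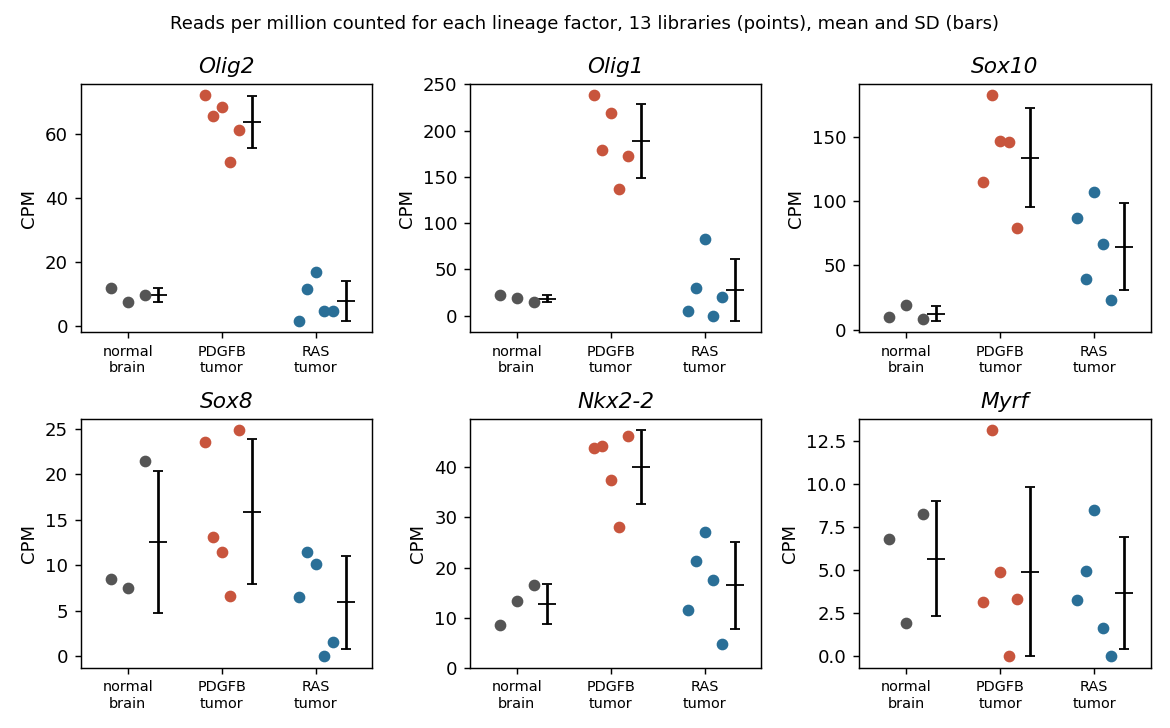
CPM (vertical axis, from 0) of each of the 6 factors in the 13 libraries (points) of normal brain, PDGFB tumors and RAS tumors, with the mean and SD of each group (bar). Olig2, Olig1 and Nkx2-2 of the 5 PDGFB tumors lie above all 8 other libraries, and Sox10 of the RAS tumors lies above normal brain.

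Olig2, which sets the precursor's identity, had 72.2, 65.7, 68.5, 51.2 and 61.2 CPM in PDGFB tumors 1 to 5. It had 1.64, 11.5, 17.0, 4.77 and 4.67 CPM in RAS tumors 1 to 5, and 11.9, 7.56 and 9.92 CPM in normal brain 1 to 3. The 5 PDGFB tumors stood above every other library, and the RAS tumors lay on both sides of normal brain, 1 above its highest and 3 below its lowest library. The mean of Olig2 in normal brain was 9.80 ± 2.18 CPM (SD, n = 3), beside 7.91 ± 6.22 for RAS and 63.8 ± 8.07 for PDGFB tumors (SD, n = 5 each). It was 5.42-fold higher in PDGFB tumors than in normal brain (fitted log2 difference 2.44 ± 0.43 SE, edgeR adjusted p = 2.43e-04). It was 7.24-fold higher in PDGFB than in RAS tumors (log2 fold change 2.86 ± 0.37 SE, edgeR adjusted p = 2.19e-05). RAS tumors and normal brain differed by a log2 fold change of −0.42 with a 95% interval of −1.50 to 0.67, which did not pass (edgeR adjusted p = 0.512).

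Olig1, the neighbor and relative of Olig2 on chromosome 16, had 238, 179, 219, 137 and 172 CPM in PDGFB tumors 1 to 5. It had 4.91, 29.5, 83.2, 0 and 20.2 CPM in RAS tumors 1 to 5, and 22.1, 18.9 and 14.9 CPM in normal brain 1 to 3. RAS tumor 4 held 0 Olig1 reads, which allows up to 4.77 CPM, and RAS tumor 3 held 49 reads, the most of the RAS tumors. Olig1 was 8.56-fold higher in PDGFB tumors than in normal brain (fitted log2 difference 3.10 ± 0.72 SE, edgeR adjusted p = 0.00201) and 6.25-fold higher than in RAS tumors (log2 fold change 2.64 ± 0.56 SE, edgeR adjusted p = 0.00161). Between RAS tumors and normal brain the log2 fold change was 0.45 with a 95% interval of −1.10 to 2.01 (edgeR adjusted p = 0.624), and without RAS tumor 3 it was −0.46 (edgeR adjusted p = 0.541).

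Gm15966, which overlaps the end of Olig1, held more reads than Olig1 in every library. It had 4858, 3503, 4337, 4493 and 4480 CPM in PDGFB tumors 1 to 5, and 205, 1029, 2057, 162 and 199 CPM in RAS tumors 1 to 5. Normal brain 1 to 3 had 375, 278 and 301 CPM. RAS tumors 2 and 3 stood above the other RAS tumors and above normal brain in Gm15966, as they did in Olig1 and, for tumor 3, in Olig2. Over all 13 libraries the table holds 16059 reads for Gm15966 and 697 for Olig1, 23.0 for each Olig1 read. Gm15966 was 11.6-fold higher in PDGFB tumors than in normal brain (fitted log2 difference 3.53 ± 0.70 SE, edgeR adjusted p = 5.84e-04) and 5.44-fold higher than in RAS tumors (edgeR adjusted p = 0.00219). In RAS tumors against normal brain its log2 fold change was 1.09 ± 0.62 SE (edgeR adjusted p = 0.145). That last value passed without RAS tumor 1, 4 or 5 (log2 fold change 1.43, 1.44 and 1.43, edgeR adjusted p = 0.0457, 0.0393 and 0.0446) and with no low-count filter.

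**Figure D2:**
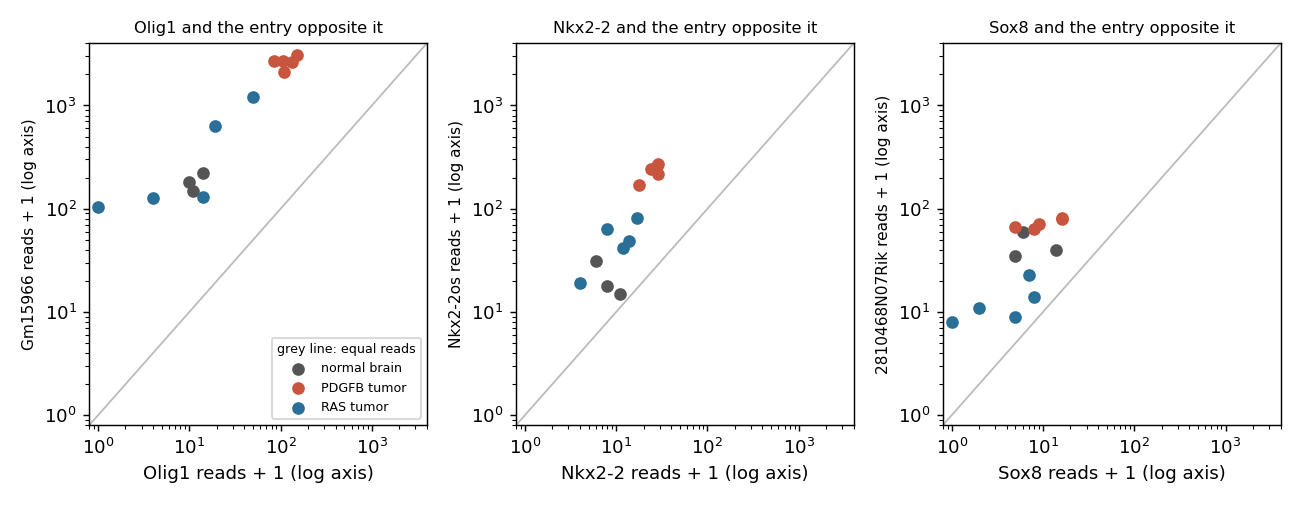
Reads + 1 of Olig1, Nkx2-2 and Sox8 (horizontal, log axis) against reads + 1 of the entry on the opposite strand (vertical, log axis) in the 13 libraries; the grey line marks equal reads. Every library lies above the line for all 3 pairs, and Gm15966 held 23.0 reads for each read of Olig1 in all.

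Sox10, which acts in both precursors and myelinating cells, was the member that stayed above normal brain in both tumor kinds. It had 114, 182, 147, 145 and 79.4 CPM in PDGFB tumors 1 to 5, and 86.8, 39.4, 107, 66.8 and 23.3 CPM in RAS tumors 1 to 5. Normal brain 1 to 3 had 10.2, 18.9 and 8.26 CPM, below all 10 tumors. The tumor kinds overlapped, with PDGFB tumor 5 below RAS tumors 1 and 3. The mean of Sox10 in normal brain was 12.5 ± 5.66 CPM (SD, n = 3), beside 64.7 ± 34.0 for RAS and 134 ± 38.7 for PDGFB tumors (SD, n = 5 each). It was 9.08-fold higher in PDGFB tumors than in normal brain (fitted log2 difference 3.18 ± 0.49 SE, edgeR adjusted p = 7.22e-05) and 4.83-fold higher in RAS tumors (log2 fold change 2.27 ± 0.50 SE, edgeR adjusted p = 8.37e-04). PDGFB tumors exceeded RAS tumors 1.88-fold (log2 fold change 0.91 ± 0.33 SE, edgeR adjusted p = 0.0455). That call ended in a fit of the tumor groups alone (edgeR adjusted p = 0.0582) and without PDGFB tumor 1, 2, 3 or 4, RAS tumor 2, 4 or 5, or any normal brain (log2 fold change 0.70 to 0.96, edgeR adjusted p 0.0519 to 0.111).

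Olig2 and Sox10 have no partner on the opposite strand, so their proportion within a library was compared, a comparison chosen after their values were seen and given here with no test. Olig2 made up 38.7%, 26.5%, 31.8%, 26.1% and 43.5% of the Olig2 and Sox10 reads together in PDGFB tumors 1 to 5. The share was 1.85%, 22.6%, 13.7%, 6.67% and 16.7% in RAS tumors 1 to 5, and 53.8%, 28.6% and 54.5% in normal brain 1 to 3. Every RAS tumor stood below every PDGFB tumor and every normal brain, while PDGFB tumors and normal brain overlapped. The mean share was 33.3 ± 7.66% (SD, n = 5) in PDGFB tumors and 12.3 ± 8.18% (SD, n = 5) in RAS tumors, a difference of 21.0 percentage points. Against normal brain, at 45.7 ± 14.8% (SD, n = 3), RAS tumors were lower by 33.4 points. PDGFB tumors differed from normal brain by −12.3 points. Single libraries are thinly covered: the share of RAS tumor 1 rests on 54 reads (exact 95% binomial interval 0.0469% to 9.89%) and that of normal brain 3 on 11 reads (23.4% to 83.3%). Without normal brain 2 the difference of PDGFB tumors from normal brain was −20.9 points, and without normal brain 3 it was −7.90 points.

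**Figure D3:**
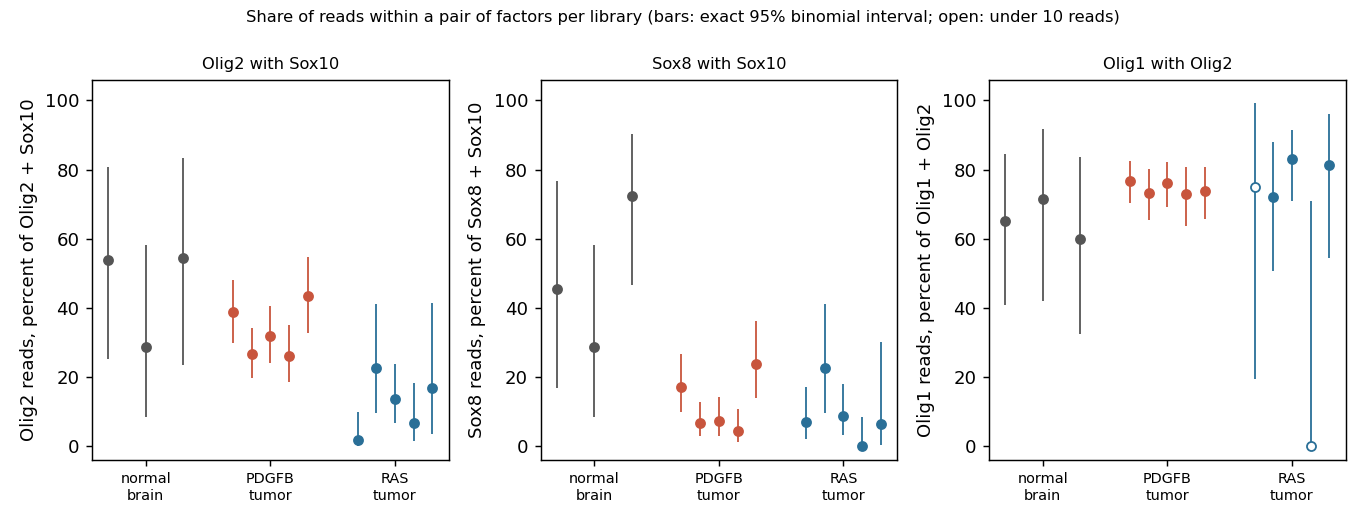
Share of reads within 3 pairs of factors in each library (vertical axis, percent of the pair's reads), with exact 95% binomial intervals; open points have under 10 reads. The share of Olig2 within Olig2 and Sox10 lies at 1.85% to 22.6% in RAS tumors and at 26.1% to 43.5% in PDGFB tumors.

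Sox8, which can stand in for part of the work of Sox10, was low in all groups. It had 23.5, 13.1, 11.4, 6.61 and 24.8 CPM in PDGFB tumors 1 to 5, 6.55, 11.5, 10.2, 0 and 1.56 CPM in RAS tumors 1 to 5, and 8.51, 7.56 and 21.5 CPM in normal brain 1 to 3. The 3 groups overlapped, with 3 RAS tumors below the lowest normal brain. No comparison of Sox8 passed: the log2 fold changes were 0.10 (edgeR adjusted p = 0.909) in PDGFB tumors against normal brain, −1.18 (edgeR adjusted p = 0.156) in RAS tumors against normal brain and 1.28 (edgeR adjusted p = 0.107) between tumors. Their 95% intervals ran from −1.21 to 1.41, from −2.63 to 0.27 and from 0.04 to 2.52. Without RAS tumor 2 the difference between tumors passed (log2 fold change 1.64, edgeR adjusted p = 0.0471).

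The entry 2810468N07Rik, which shares the first exon bases of Sox8, separated the RAS tumors from the other groups. It had 122, 115, 103, 109 and 134 CPM in PDGFB tumors 1 to 5, 13.1, 21.3, 37.4, 11.1 and 15.6 CPM in RAS tumors 1 to 5, and 100.5, 64.3 and 64.5 CPM in normal brain 1 to 3. The RAS tumors stood below every other library. It was 4.14-fold lower in RAS tumors than in normal brain (fitted log2 difference −2.05 ± 0.33 SE, edgeR adjusted p = 5.20e-05) and 5.35-fold higher in PDGFB than in RAS tumors (log2 fold change 2.42 ± 0.29 SE, edgeR adjusted p = 1.19e-05). PDGFB tumors and normal brain differed by a log2 fold change of 0.37 (edgeR adjusted p = 0.335). With the reads of Sox8 and this entry summed, the pair was lower in RAS tumors than in normal brain (fitted log2 difference −1.89, edgeR adjusted p = 1.40e-04) and higher in PDGFB than in RAS tumors (2.23, edgeR adjusted p = 3.57e-05).

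Within the SOX pair, Sox8 made up 48.7 ± 22.0% (SD, n = 3) of the Sox8 and Sox10 reads in normal brain, beside 11.8 ± 8.28% for PDGFB and 8.91 ± 8.32% for RAS tumors (SD, n = 5 each). The lowest normal brain stood at 28.6%, and the highest PDGFB and RAS tumors at 23.8% and 22.6%. The share was lower than in normal brain in both tumor kinds (exact permutation tests, two-sided, p = 0.0179 and adjusted p = 0.0357 over 6 comparisons for each), and 0.0179 is the smallest p that 5 against 3 libraries can give. The normal shares rest on 11 to 18 reads, and both calls ended with any 1 library of the compared groups left out (adjusted p 0.0571 to 0.0952). Between tumors it differed by 2.92 points (exact permutation test, p = 0.643). Within the Olig pair, Olig1 made up 74.5 ± 1.81% (SD, n = 5) of the Olig1 and Olig2 reads in PDGFB tumors and 65.5 ± 5.73% (SD, n = 3) in normal brain, with no overlap (exact permutation test, p = 0.0179, adjusted p = 0.0357), a call that also ended with any 1 library left out. Only 3 RAS tumors had 10 or more reads of the Olig pair, at 72.0%, 83.1% and 81.3%. They differed from PDGFB tumors by 4.24 points (78.8% against 74.5%; exact permutation test, p = 0.179) and from normal brain by 13.3 points (exact permutation test, p = 0.100, the smallest that 3 against 3 can give). With all 5 RAS tumors kept both directions turned, to 12.3 points higher in PDGFB than in RAS tumors and −3.22 points in RAS tumors against normal brain. Both shares set a gene with an opposite-strand partner against one with none. Sox8 held 13.9% of the reads of Sox8 and 2810468N07Rik, and Olig1 4.16% of those of Olig1 and Gm15966. The shares are thus of deposited reads, and the part of the partners in them was not tested.

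Nkx2-2, a factor of precursors on the way to differentiation, had 43.9, 44.3, 37.5, 28.1 and 46.3 CPM in PDGFB tumors 1 to 5. It had 11.5, 21.3, 27.2, 17.5 and 4.67 CPM in RAS tumors 1 to 5, and 8.51, 13.2 and 16.5 CPM in normal brain 1 to 3. All PDGFB tumors stood above all other libraries, and RAS tumor 3 came nearest to them. Nkx2-2 was 2.64-fold higher in PDGFB tumors than in normal brain (fitted log2 difference 1.40 ± 0.43 SE, edgeR adjusted p = 0.0123) and 2.22-fold higher than in RAS tumors (log2 fold change 1.15 ± 0.34 SE, edgeR adjusted p = 0.0159). In RAS tumors against normal brain its log2 fold change was 0.25 (95% interval −0.70 to 1.21, edgeR adjusted p = 0.656).

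Its antisense partner Nkx2-2os held 1466 reads in all, against 195 for Nkx2-2. Nkx2-2os had 422, 427, 398, 276 and 356 CPM in PDGFB tumors 1 to 5, 103, 78.8, 136, 65.2 and 28.0 CPM in RAS tumors 1 to 5, and 51.1, 32.1 and 23.1 CPM in normal brain 1 to 3. It was 8.95-fold higher in PDGFB tumors than in normal brain (fitted log2 difference 3.16 ± 0.40 SE, edgeR adjusted p = 1.24e-05) and 4.18-fold higher than in RAS tumors (log2 fold change 2.06 ± 0.30 SE, edgeR adjusted p = 7.68e-05). In RAS tumors against normal brain it was 2.14-fold higher with overlapping libraries (log2 fold change 1.10 ± 0.39 SE, edgeR adjusted p = 0.0230). That call ended without normal brain 2 or 3 (log2 fold change 1.14 and 0.86, edgeR adjusted p = 0.0535 and 0.119), in limma-voom (adjusted p = 0.0561) and in a fit of those groups alone (edgeR adjusted p = 0.0527). The intronic entry 6430503K07Rik had 6 to 19 reads in PDGFB tumors, 0 to 2 in RAS tumors and 0 in normal brain, which makes it at least 12.2-fold higher in PDGFB tumors than in normal brain by a floor of 3 reads over the normal group (edgeR adjusted p = 2.37e-04). With the reads of Nkx2-2 and Nkx2-2os summed, RAS tumors passed against normal brain (log2 fold change 0.92, edgeR adjusted p = 0.0366).

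**Figure D4:**
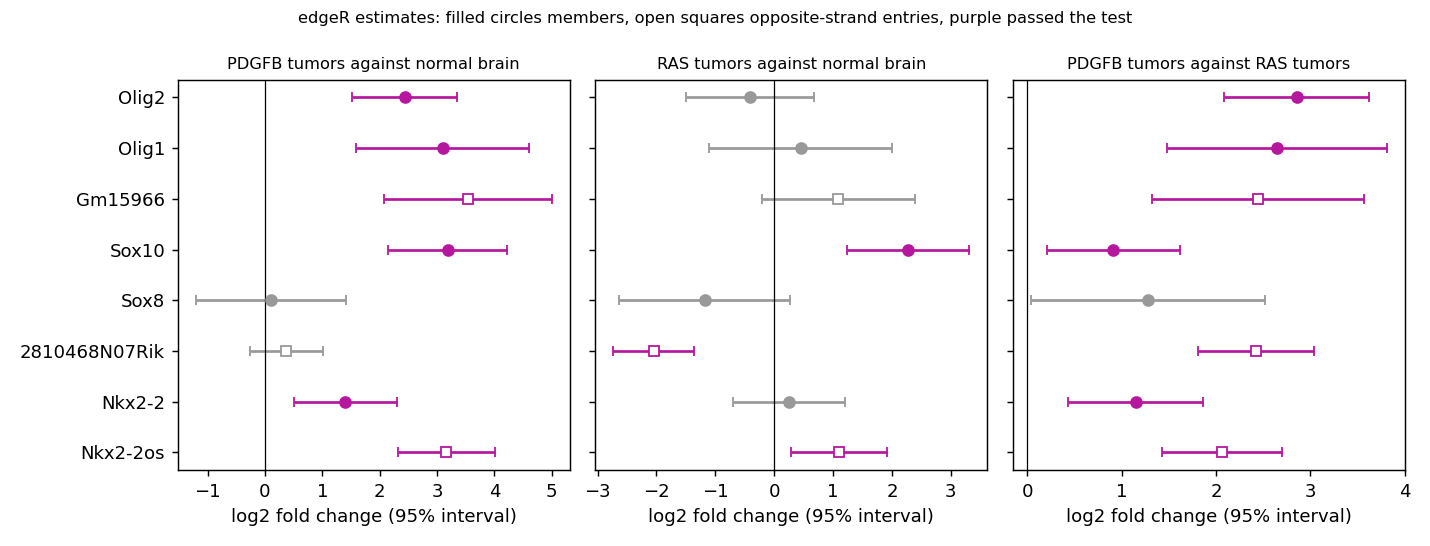
Log2 fold changes with 95% intervals (horizontal axis) of 5 members (filled circles) and 3 opposite-strand entries (open squares) in the 3 comparisons, with those that passed edgeR's test in purple. In RAS tumors against normal brain Sox10 stands at 2.27, Olig2 at −0.42 and 2810468N07Rik at −2.05.

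Myrf, the switch to myelin gene expression, had 0 to 8 reads per library and did not pass the low-count filter. It had 3.14, 13.1, 4.89, 0 and 3.31 CPM in PDGFB tumors 1 to 5, 3.27, 4.92, 8.49, 1.59 and 0 CPM in RAS tumors 1 to 5, and 6.81, 1.89 and 8.26 CPM in normal brain 1 to 3. All 3 groups overlapped. Summed over groups, PDGFB tumors held 0.841 times the Myrf reads of normal brain per read counted (95% counting interval 0.354 to 2.09) and RAS tumors 0.615 times (0.237 to 1.61). In a fit with no filter none of its comparisons passed (edgeR adjusted p = 0.850, 0.569 and 0.816), so no difference was detectable with so few reads counted for the gene.

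Reads of different members were compared as CPM per kb of exon. Over all libraries, genes with an exon overlap on the opposite strand held 187 reads per kb, against 13.2 for genes with none. Olig1, Sox8 and Nkx2-2 have such an overlap, and Olig2, Sox10 and Myrf have none. The order between these sets is one of deposited reads and cannot be read as relative expression. In PDGFB tumors the order was Olig1 (87.4 ± 18.5 CPM per kb; SD, n = 5), Sox10 (43.8 ± 12.7), Olig2 (25.2 ± 3.19), Nkx2-2 (13.9 ± 2.59), Sox8 (5.10 ± 2.54) and Myrf (0.572 ± 0.577). No mean of this order lay within 1 SD of its neighbor. In RAS tumors Sox10 came first (21.2 ± 11.2 CPM per kb; SD, n = 5), followed by Olig1 (12.8 ± 15.4), Nkx2-2 (5.71 ± 3.03), Olig2 (3.13 ± 2.46), Sox8 (1.91 ± 1.63) and Myrf (0.427 ± 0.382). There the range of mean ± SD overlapped between all neighbors of the order. In normal brain Olig1 led (8.62 ± 1.68 CPM per kb; SD, n = 3), Nkx2-2, Sox10, Sox8 and Olig2 stood between 3.87 and 4.44 and did not differ beyond their spread, and Myrf stood at 0.660 ± 0.390.

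RAS tumor 3 was the highest RAS tumor for Olig2, Olig1, Gm15966, Sox10, Nkx2-2, Nkx2-2os and Myrf, and RAS tumor 5 the lowest for Sox10, Nkx2-2, Nkx2-2os and, with 0 reads, Myrf. RAS tumor 1 held 53 Sox10 reads beside 1 read of Olig2 and 3 of Olig1.

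Genes with the most similar profile were named for each member with at least 130 reads, by the root mean square difference of log2 CPM after centring on the gene's mean over the 13 libraries. For Olig2 these were Tnfrsf18 (opposite Gm16008), Cuedc1 and Tcfl5 (opposite Col9a3), at 0.31, 0.33 and 0.41, where the median over 5687 genes was 1.46. For Olig1 they were Cacng4, Rev3l and Kcnk2 (opposite A430027H14Rik), at 0.65, 0.76 and 0.76 against a median of 1.97. For Sox10 they were the integrin gene Itga1, the protease inhibitor gene Serpine2 and the scaffold gene Akap12, at 0.37, 0.45 and 0.47 against 1.37. For Nkx2-2 they were Gnb4, Gatm and Nox1 (opposite Cstf2), at 0.24, 0.27 and 0.28 against 0.98. The 3 genes of each member have the smallest of all these differences, so values far under the median follow from the choice. The libraries, their depth and the 3 groups are shared by all these genes.

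Other regulators of the lineage were read from a list of 41 genes, of which 30 were tested. In PDGFB tumors against normal brain 15 were higher and 4 lower (median log2 fold change 1.15, over all genes tested −0.0023), where 20.2% of all genes were higher and 25.1% lower. Among the 20 tested regulators that lack an opposite-strand partner, 10 were higher and 1 lower. Of these 20, 9 were higher and 2 lower in RAS tumors against normal brain, and 3 higher and 1 lower between tumors. Chd7, a chromatin remodeler that works with Sox10, had 62 reads over the PDGFB tumors and 1 over normal brain, a count ratio of 34.8 (95% counting interval 6.01 to 1395), and the homeobox gene Prrx1 had 111 and 3, a ratio of 20.8 (6.92 to 102). The intervals of these and the later count ratios pool the reads of a group and cover counting error only, not the spread between tumors. Etv4, a target of Erk signaling, and Sox6, which holds precursors back from differentiation, rose by 2.58 and 2.55 on the log2 scale (edgeR adjusted p = 0.00524 and 0.00255). Id4 (opposite A330033J07Rik and Gm49291), Klf9, Zfp536 and Nkx6-2 (opposite Inpp5a) were lower, with log2 fold changes of −1.82, −1.76, −1.58 and −0.97. The call of Id4 ended without normal brain 1 (edgeR adjusted p = 0.0900) and that of Zfp536 without normal brain 3 (0.0510).

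Of the 30 regulators 13 were higher in RAS tumors than in normal brain and 4 were lower (median log2 fold change 0.57, over all genes tested 0.02), beside 26.9% and 29.3% of all genes. Prrx1 had 132 reads over the RAS tumors and 3 over normal brain, a ratio of 24.6 (95% counting interval 8.23 to 121), and Chd7 had 29 and 1, a ratio of 16.2 (2.69 to 662). Tcf3, a partner protein of Olig factors, and Klf6 rose by 2.79 and 2.43 on the log2 scale (edgeR adjusted p = 5.67e-04 and 7.51e-04). Id4 (opposite A330033J07Rik and Gm49291), Zfp536 and Klf9 were among those lower, with log2 fold changes of −2.87, −2.35 and −1.90 (edgeR adjusted p = 5.71e-04, 1.99e-04 and 3.70e-04).

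Between tumors 5 of the 30 regulators were higher in PDGFB tumors and 2 lower (median log2 fold change 0.36, over all genes tested 0.03). Over all genes 14.6% were higher and 17.4% lower, so the share of regulators that were higher is near that of all genes. Sox6, Zfp24 and Sox2 were higher by 2.34, 1.44 and 1.09 on the log2 scale (edgeR adjusted p = 0.00131, 0.00703 and 0.00563). Klf6 and Nkx6-2 (opposite Inpp5a) were lower in PDGFB tumors, with log2 fold changes of −1.52 and −1.28 (edgeR adjusted p = 0.00509 and 4.31e-04).

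Surface and matrix genes of the precursor were read from a list of 20. Of 17 tested, 10 were higher and 2 lower in PDGFB tumors against normal brain (median log2 fold change 2.19). RAS tumors had 4 higher and 5 lower than normal brain (median −0.33), and between tumors 13 were higher in PDGFB tumors and 0 lower (median 1.84). Over all genes 20.2% were higher and 25.1% lower in PDGFB tumors against normal brain, 26.9% and 29.3% in RAS tumors against normal brain, and 14.6% and 17.4% between tumors. The counts of RAS tumors against normal brain are thus near those of all genes. Among the 7 tested precursor genes that lack an opposite-strand partner, 4 were higher and 2 lower in PDGFB tumors against normal brain. Of these 7, 2 were higher and 3 lower in RAS tumors against normal brain, and 5 higher and 0 lower between tumors. The PDGF receptor gene Pdgfra (opposite Gm42802 and Gm42803) averaged 12.2 CPM in normal brain, 48.6 in RAS and 218 in PDGFB tumors, and passed in all 3 comparisons (edgeR adjusted p = 1.81e-06 and 7.17e-04 for the comparisons with normal brain and 4.12e-05 between tumors). The proteoglycan gene Cspg4 had 100, 25 and 1 reads over the 5 PDGFB tumors, 5 RAS tumors and 3 normal brains. The protocadherin gene Pcdh15 had 76, 2 and 2, a ratio of 38.1 between tumors (95% counting interval 10.2 to 321). Cacng4, Ptprz1 and Bcan were higher in PDGFB than in RAS tumors by 2.93, 2.58 and 2.48 on the log2 scale. Megf11 and Lingo1 were lower than in normal brain in PDGFB tumors (log2 fold changes −2.07 and −1.99) and in RAS tumors (−2.71 and −2.52). The call of Lingo1 in PDGFB tumors ended without normal brain 2 (edgeR adjusted p = 0.0852). Ncald (opposite Gm28221) and Bcan were lower in RAS tumors than in normal brain (−2.18 and −1.88), and the call of Bcan ended without normal brain 1 and in a fit of those groups alone (edgeR adjusted p up to 0.110). Gpr17, a receptor of differentiating precursors, averaged 39.2 CPM in normal brain, 14.6 in RAS and 40.2 in PDGFB tumors. Lims2, whose exons overlap Gpr17 on the other strand, averaged 194, 54.6 and 423.

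Genes of the differentiating and mature oligodendrocyte include many targets of Sox10 and Myrf. Of 16 tested, 1 was higher and 8 lower in PDGFB tumors against normal brain (median log2 fold change −0.85), and 2 were higher and 11 lower in RAS tumors (median −1.96). The shares of all genes were 20.2% higher and 25.1% lower for PDGFB tumors, and 26.9% and 29.3% for RAS tumors. Among the 8 tested genes that lack an opposite-strand partner, 0 were higher and 5 lower in PDGFB tumors (median −2.38). The myelin genes Mag, Mal, Mbp and Mobp had log2 fold changes of −4.16, −3.81, −3.73 and −3.67 in PDGFB tumors (edgeR adjusted p = 1.37e-04, 1.15e-05, 3.15e-06 and 1.28e-04). Mobp, Mal, Mbp and Tspan2 (opposite Tspan2os) had −3.95, −3.86, −3.78 and −3.45 in RAS tumors (edgeR adjusted p at most 4.98e-05). Trf, the iron carrier gene, fell in PDGFB tumors (log2 fold change −1.38, edgeR adjusted p = 0.00358) and rose in RAS tumors (1.99, edgeR adjusted p = 1.10e-04). Between tumors 5 of the 16 were higher in PDGFB tumors and 1, Trf, was lower (median 0.26, or −0.03 in genes that lack an opposite-strand partner), beside 14.6% and 17.4% of all genes. Rffl (opposite Lig3) was higher than in normal brain in both tumor kinds, by 1.15 and 0.90 on the log2 scale.

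**Figure D5:**
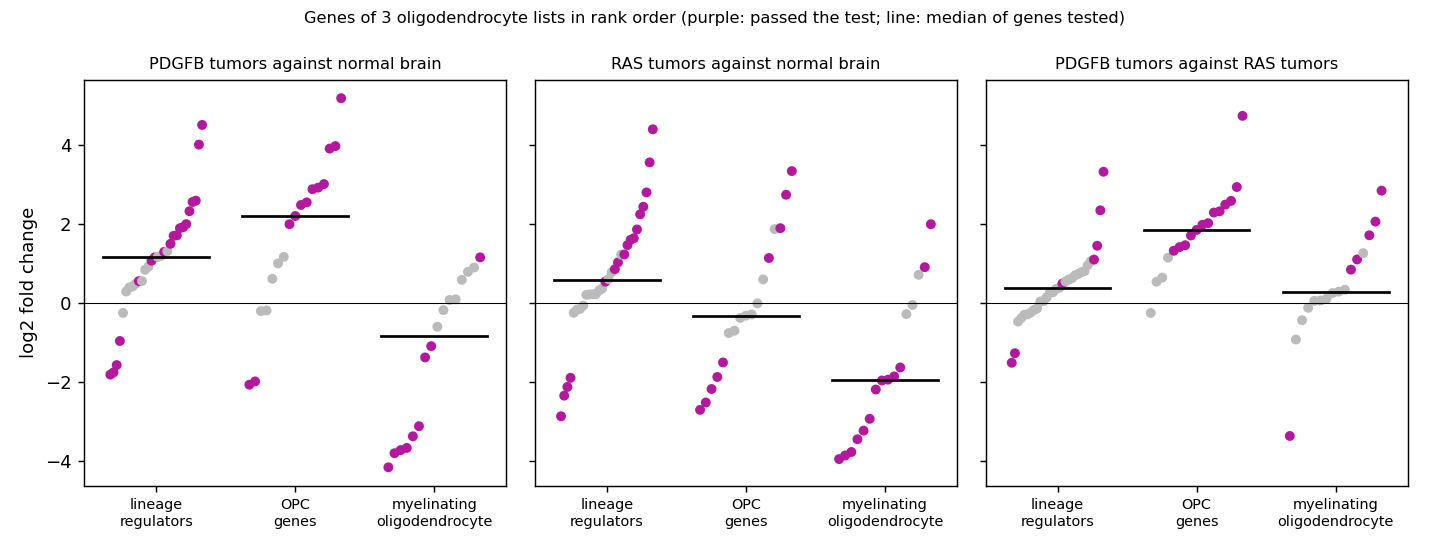
Log2 fold changes (vertical axis) of the genes tested in 3 lists, in rank order, for the 3 comparisons; purple points passed edgeR's test and the line is the median. The median of the precursor genes lies at 2.19, −0.33 and 1.84, and that of the myelinating genes at −0.85, −1.96 and 0.26.

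Markers of other cells moved with the groups, and their part in the members' differences was not tested. For the counts that follow, 20.2% of all genes were higher and 25.1% lower in PDGFB tumors against normal brain, and 26.9% and 29.3% in RAS tumors. Of 14 neuron genes tested, 14 were lower in PDGFB tumors and 11 in RAS tumors than in normal brain, and 0 higher. Without the neurofilament genes Nefl and Nefm, the neuron list summed to 1765 to 1859 CPM in normal brain. It summed to 110 to 355 CPM in PDGFB tumors and 60.4 to 486 in RAS tumors. Nefl and Nefm together held 4031 to 4501, 163 to 361 and 3598 to 8501 CPM in normal brain, PDGFB and RAS tumors. Their exons overlap each other on opposite strands, so their reads cannot be assigned to either gene. Of 7 macrophage and microglia genes tested, 2 were higher and 1, Csf1r (opposite Hmgxb3), lower in PDGFB tumors against normal brain. RAS tumors had 5 higher and 0 lower. The list of 15 summed to 369 to 415 CPM in normal brain, 345 to 442 in PDGFB and 647 to 1023 in RAS tumors. Csf1r alone averaged 248, 197 and 281 CPM there, and its call ended in 6 settings (edgeR adjusted p up to 0.27). The 12 genes that lack an opposite-strand partner summed to 26.5 to 49.6, 103 to 160 and 332 to 599 CPM. Of their 5 tested genes, 2 were higher and 0 lower in PDGFB tumors. Ptprc was at 0 in normal brain. Of 3 endothelial and mural genes tested, 2 were higher in RAS tumors than in normal brain, Col1a1 and Col1a2, and 0 lower. In PDGFB tumors 0 were higher and 1, Rgs5, was lower (log2 fold change −1.92, edgeR adjusted p = 0.0372). The call of Rgs5 ended in 10 settings (edgeR adjusted p up to 0.151). The list of 12 summed to 34.0 to 38.01 CPM in normal brain, 24.8 to 69.5 in PDGFB tumors and 109 to 442 in RAS tumors, with Cldn5 and Acta2 at 0 in normal brain. Of 10 astrocyte genes tested, 6 were lower in PDGFB tumors and 6 in RAS tumors, and the list of 13 summed to 722 to 896, 236 to 526 and 129 to 709 CPM in normal brain, PDGFB and RAS tumors. Sox10 is also made by Schwann cells and melanocytes. Of the 8 genes of that list, Dct was at 0 in all 3 groups, Mitf in PDGFB tumors and Tyr and Mlana in RAS tumors, and the list summed to 17.0 to 39.7 CPM in normal brain, 70.1 to 102 in PDGFB tumors and 32.7 to 84.9 in RAS tumors. Its 2 tested genes were Pmp22, higher in PDGFB tumors than in normal brain by 2.10 on the log2 scale (edgeR adjusted p = 0.00297), and Pmel (opposite Dgka and Cdk2), higher in both tumor kinds.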

How the data were processed

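Whole-number counts of reads per Ensembl gene were used as the authors deposited them, 1 column for each of the 13 libraries. Reads were trimmed with fastp 0.22.0 and aligned with STAR 2.7.9a to GRCm38, per the submitters' processing notes, and the cDNA was prepared with a TruSeq kit from Trizol RNA, per the labels' protocols. The annotation and strand setting of the count are not given in the sources used here. Rows for reads with no gene stayed out of library sizes. Gene positions and overlaps came from GENCODE M21 on GRCm38.

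Tests used edgeR 4.0.16 (quasi-likelihood, TMM factors, filterByExpr with a minimum count of 10 and a minimum total of 15) on 3 groups in 1 fit, with adjustment over 7722 genes, and the script was tested on simulated counts. DESeq2 1.42.0 and limma 3.58.1 were alternatives. Shares of reads within the Olig1 and Olig2 pair and the Sox8 and Sox10 pair were compared by two-sided exact permutation tests, leaving out libraries with under 10 reads of the pair. Intervals of shares are exact binomial (Clopper-Pearson) and cover counting error only, and the floor is 3 reads.

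The members and gene lists were chosen with earlier results of these data known. Named genes are the members and their opposite-strand genes, the called genes of a list with the largest changes (up to 4 in each direction, or 2 for markers of other cells), and the 3 most similar profiles among genes with a mean of at least 10 CPM (prior count 2). From these, a selection is printed, and some list genes are not reported here. Genes chosen after their values were seen are Gpr17, Lims2 and Trf against normal brain.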

Additional observations from a re-analysis of the deposited data

How the results depend on the processing

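The count of members called stayed at 4, 1 and 4 (PDGFB tumors against normal brain, RAS tumors against normal brain, PDGFB against RAS tumors) or within 1.5 times of it in every setting run except 2. With the reads of both strands summed, 3 members passed in RAS tumors against normal brain, and at an adjusted p under 0.01, 2 passed between tumors, where 1465 genes in place of 2476 were called. Olig1 in RAS tumors against normal brain turned to −0.80 in limma-voom, and leaving out 1 library moved it between −0.46 and 0.87 (log2). Sox8 in PDGFB tumors against normal brain moved between −0.11 and 0.73, also below 0 without PDGFB tumor 1 (−0.09), normal brain 1 (−0.0076) or normal brain 2 (−0.04). With no minimum of reads, the Olig1 share differed by −3.22 points between RAS tumors and normal brain and by 12.3 points between tumors. Leaving out 1 library gave 6.31 to 12.02 points for the Olig1 share of PDGFB tumors against normal brain. It gave −47.0 to −25.2 and −49.9 to −28.1 points for the Sox8 share of PDGFB and RAS tumors against normal brain. These calls ended with any library of their groups left out (exact permutation tests, adjusted p 0.0571 to 0.0952), since fewer libraries raise the smallest possible p. The Sox8 share between tumors moved between −0.0757 and 6.34 points. The Olig2 share of Olig2 and Sox10 moved between −20.9 and −7.90 points (PDGFB tumors against normal brain) and between −41.9 and −28.9 (RAS tumors against normal brain). Except where stated, the cause was not tested. Scaling by library totals moved the median gene by 0.23, 0.11 and 0.17 (log2) and the split of calls in PDGFB tumors against normal brain from 1558 higher and 1940 lower to 2045 and 1556. Among mature oligodendrocyte genes that lack an opposite-strand partner, the median was −2.38 in PDGFB tumors against normal brain (0 higher and 5 lower of 8) and −0.03 between tumors. With a replicate block of the tumors' numbers, 4 members passed between tumors, and 2032 genes in all. The deviations of same-numbered tumors correlated at −0.126 to 0.145, and number 1 alone correlated best with its own number. Deviations of low counts are noisy, so this check cannot exclude that the numbers pair samples. At 3 reads of floor, members under about 5 CPM are near the limit set by the number of reads counted for genes.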
